A study of Mus musculus with 26 samples.

Results

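The regions described are the peaks of CTCF M-ChIP that held several matches to the CTCF motif. A region was a member if it had at least 2 matches of the 19-base motif (JASPAR MA0139) that did not overlap each other, by the authors' list of motif matches. In all, 4625 of the 38881 merged CTCF M-ChIP regions were members (11.9%, Wilson 95% interval 11.6 to 12.2). Most other regions held 1 match (28805 regions), while 1951 held matches that all overlapped each other and 3500 held none. The members carried 9766 motifs, which formed 5141 pairs of neighbours.

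CTCF is a zinc finger protein that marks insulators and the anchors of chromatin loops. Its motif has a direction, and loops formed with the cohesin complex usually join motifs that point towards each other over long distances. Methylation of a CpG inside the motif is known to weaken binding at many sites, and the paired motifs described here lie within single peaks, far closer than the anchors of a loop.

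The cells were KH2 mouse embryonic stem cells (mESC), grown on irradiated feeder cells and pre-plated to remove them. CTCF-bound chromatin was isolated with 1 antibody and tagmented by Tn5 with methylated adaptors followed by bisulfite conversion (CTCF M-ChIP), with methylated adaptors and no conversion (CTCF M-ChIP NC), or with Nextera adaptors (CTCF ChIP), with 2 samples each. Open chromatin was tagmented in the same ways as M-ATAC (4 samples), M-ATAC NC (2 samples) and ATAC (2 samples). The NC samples were aliquots of the tagmented DNA taken before conversion, so they share material with the converted samples. No treatment or mutation separated these groups, and nothing in the labels says whether replicates were separate cultures, so p-values measure the spread between these samples only. Transcript levels came from 2 mESC RNA-seq samples, given as merged values. The 6 markers of embryonic stem cells, among them Pou5f1, ranged from 229 to 657 TPM, a transcript level scaled to length and library size. The 6 markers of feeder fibroblasts ranged from 4.71 for Pdgfrb to 85.3 for Acta2, and the part of feeder cells was not tested. Distinct peak regions numbered 22261 to 49633 in the CTCF samples and 24113 to 32999 in the open chromatin samples. Methylation was deposited for merged replicates, and cytosines in the members' motifs had a median of 8 reads (quartiles 4 and 13).

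Paired motifs of 3 kinds are shown as sequence from GRCm38, plus strand, with motifs in capitals and the bases between them in lower case. The first kind is a convergent pair 38 bp apart between midpoints, which recurred across the genome. Its commonest bases over 809 pairs are given first, followed by the copy that equals them at all 57 bases (chr10:94741152-94741208, where the recurrent motif is on the minus strand and the run reads as the reverse complement) and the copy with most reads in both motifs (chr2:158379907-158379963).
Commonest bases: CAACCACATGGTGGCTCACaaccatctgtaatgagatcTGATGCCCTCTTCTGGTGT
Copy near Cep83: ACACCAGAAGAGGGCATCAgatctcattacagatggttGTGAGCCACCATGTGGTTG
Copy near Snhg11: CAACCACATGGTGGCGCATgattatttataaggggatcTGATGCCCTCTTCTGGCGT

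The second kind is a tandem array, in which the motif returns on 1 strand at a fixed period. The array in an intron of Sec22c (chr9:121697655-121697943) held 7 motifs with a period of 45 bp, and that in an intron of Ctcfl (chr2:173097388-173097566) held 6 motifs on the minus strand with a period of 32 bp.
Sec22c array: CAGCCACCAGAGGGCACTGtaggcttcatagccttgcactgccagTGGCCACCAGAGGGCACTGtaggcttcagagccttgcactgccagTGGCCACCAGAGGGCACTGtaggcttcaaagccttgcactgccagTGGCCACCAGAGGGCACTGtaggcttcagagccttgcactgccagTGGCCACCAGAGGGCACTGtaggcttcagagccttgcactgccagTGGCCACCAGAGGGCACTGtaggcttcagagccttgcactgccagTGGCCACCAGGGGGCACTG
Ctcfl array: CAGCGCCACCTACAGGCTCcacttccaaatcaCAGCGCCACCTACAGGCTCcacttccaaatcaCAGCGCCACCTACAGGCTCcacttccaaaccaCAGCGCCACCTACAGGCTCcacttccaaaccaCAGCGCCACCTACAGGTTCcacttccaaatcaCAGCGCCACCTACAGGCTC

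The third kind is a pair of strong motifs, chosen by score among pairs with at least 5 reads at a cytosine of both motifs. The examples are a same-strand pair 30 bp apart in an intergenic region 9754 bp from the start of Gm14234 (chr2:168428544-168428592), a divergent pair 31 bp apart in an intron of Pmm1 (chr15:81956648-81956697) and a convergent pair 267 bp apart in an intron of Rimbp2 (chr5:128808733-128809018).
Same strand: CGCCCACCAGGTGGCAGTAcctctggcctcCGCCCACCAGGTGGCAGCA
Divergent: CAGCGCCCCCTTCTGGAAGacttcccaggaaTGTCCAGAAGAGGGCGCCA
Convergent: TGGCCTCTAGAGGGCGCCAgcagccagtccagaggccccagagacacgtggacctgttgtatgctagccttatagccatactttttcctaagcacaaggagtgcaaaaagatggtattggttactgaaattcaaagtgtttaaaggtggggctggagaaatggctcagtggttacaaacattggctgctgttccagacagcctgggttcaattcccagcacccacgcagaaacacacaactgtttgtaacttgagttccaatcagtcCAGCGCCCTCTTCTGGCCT

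A further 3 pairs are shown because their motifs differed in methylation. Each motif is given on its own strand, with the CpG whose methylation can be measured in capitals. The pairs lie in an intron of Trmt44 (chr5:35563642-35563927), in an intergenic region nearest to Brd1 (chr15:88651214-88651380) and in an intergenic region nearest to Gm4118 (chr14:61571340-61571569).
Trmt44 higher scoring motif: tgaccaccagggggCGgtg
Trmt44 lower scoring motif: cattcaggagaggaCGgtg
Brd1 higher scoring motif: CGaccagcagagggcaggc
Brd1 lower scoring motif: agtcctgCGgaggacaccc
Gm4118 higher scoring motif: ttgcCGgcagagggCGcac
Gm4118 lower scoring motif: atgccacttgaggtCGggc

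Among the members, 4215 regions (91.1%) had 2 motifs, 343 had 3, 46 had 4 and 21 had 5 or more, up to 9 in 1 region. Members were wider than regions with 1 match, with a median of 291 bp (95% interval 287 to 295) against 251 bp (250 to 252), and 31.9% of regions over 400 bp were members against 6.80% of regions under 200 bp. The enrichment of the merged peak, given by the authors as a fold over the local background and taken at the highest summit, had a median of 10.6 (10.5 to 10.8) in members and 9.90 (9.83 to 9.97) in regions with 1 match. Between 200 and 400 bp of width these medians were 11.2 (11 to 11.4) and 11.2 (11.1 to 11.2). Members had the lower median in both other width classes, with 6.74 (6.48 to 6.97) against 6.92 (6.84 to 6.99) under 200 bp and 12.6 (12.4 to 13) against 13.1 (12.7 to 13.5) over 400 bp, so the higher merged fold of members over all widths was not seen within these width classes. Members lay within 3 kb of a transcription start in 35.9% of cases (34.5 to 37.3) and single regions in 28.3% (27.7 to 28.8). Their bases held a median of 1.27 CpG per 100 bp (1.23 to 1.32) against 1.09 (1.07 to 1.10), and 49.3% against 47.1% G or C. The share of regions that were members ranged from 10.02% to 14% over 20 chromosomes. At the edge of the definition, 60 regions had 2 motifs 19 or 20 bp apart with a median fold of 11.5 (8.92 to 13.6), and 59 regions had overlapping matches 17 or 18 bp apart with a median fold of 11.7 (8.80 to 13.1).

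Neighbouring motifs pointed the same way in 2342 of 5141 pairs (45.6%, 44.2 to 46.9), towards each other in 1829 (35.6%, 34.3 to 36.9) and away from each other in 970 (18.9%, 17.8 to 20). Same-strand pairs were split between the plus strand (1191 pairs) and the minus strand (1151 pairs). The median distance between midpoints was 67 bp (65 to 70) for same-strand pairs, 38 bp (38 to 38) for convergent pairs and 92 bp (87 to 98) for divergent pairs. The convergent median was set by 1 distance, because 809 convergent pairs (44.2%) lay exactly 38 bp apart, against 26 pairs at 37 bp and 43 pairs at 39 bp. Only 22 same-strand and 6 divergent pairs had that spacing. Without those 809 pairs, an alternative chosen after seeing the data, convergent pairs were 23.5% of the rest with a median of 54 bp, while same-strand pairs were 54.1% and divergent pairs 22.4%. With motif matches limited to p of at most 1e-05, 1103 pairs remained, of which 60.1% were on the same strand, 21.9% convergent and 18% divergent.

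**Figure D1:**
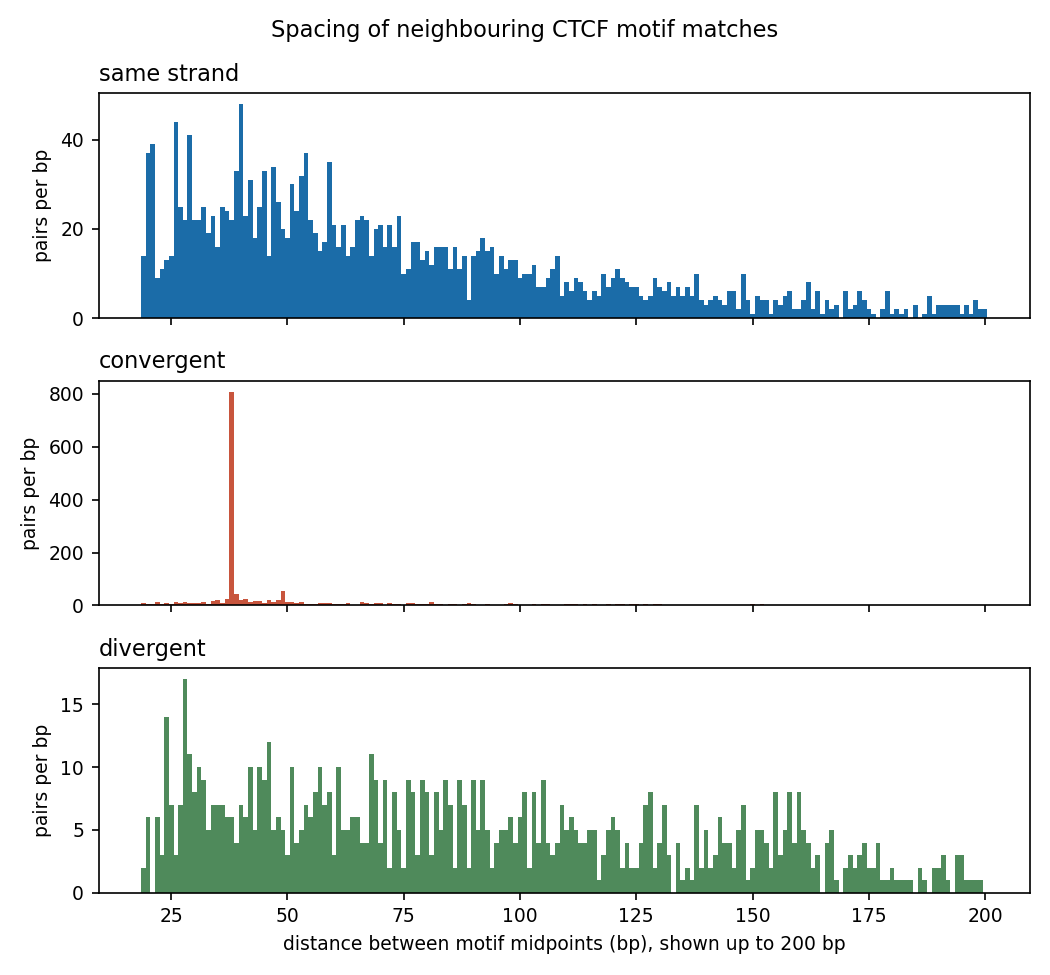
Number of neighbouring motif pairs (y axis) at each distance between motif midpoints in bp (x axis, up to 200 bp), in 1 panel for each orientation with its own y axis. Same-strand and divergent pairs were spread over many distances, while 809 of 1829 convergent pairs stood at 38 bp.

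The convergent pairs 38 bp apart were nearly all copies of 1 sequence, and 9 of the 809 had under 34 bases equal to it. They were picked out after their spacing was seen and are described without a test. Turned so that the recurrent motif came first, the 809 pairs equalled the commonest bases at a median of 52 of 57 positions, and 796 of them did so at 46 or more. At 49 of the 57 positions, 1 base stood in over 80% of the pairs, including most of the bases between the motifs. Lower case in the reference marks repeated sequence, and a motif counted as lower case with at least 10 of its 19 bases so written. Both motifs counted so in 790 pairs (97.7%), against 230 of 1020 other convergent pairs (22.5%) and 210 of 2342 same-strand pairs (8.97%). B2 short retrotransposons are known to carry CTCF motifs in rodents, but no repeat annotation was used here and the family of these copies was not tested. Such pairs lay on 20 chromosomes in 807 of the 4625 members (17.4%). The recurrent motif scored less than its partner in 788 pairs (97.4%), with medians of 8.03 and 15.9, and 600 pairs held 1 identical recurrent sequence with a score of 8.03. That sequence was the match of only 63 regions with 1 match. In 757 pairs (93.6%) the lower scoring motif had a p over 1e-05, against 77.7% of all other pairs.

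**Figure D2:**
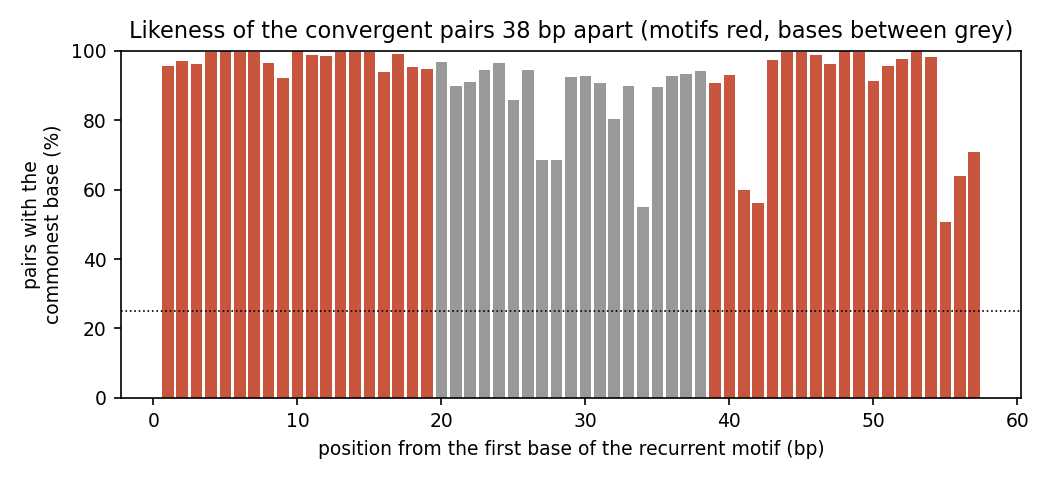
Share of the 809 convergent pairs 38 bp apart that had the commonest base (y axis, %) at each of 57 positions from the first base of the recurrent motif (x axis, bp), with motif positions in red, bases between in grey and a dotted line at 25%. At 49 positions the share was over 80%, within and between the motifs.

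CTCF peaks at these copies were weaker and fewer than at other paired motifs. The 726 members with 2 motifs of this kind had a median merged fold of 7.51 (7.21 to 7.81), against 10.9 (10.5 to 11.2) at the 872 members with other convergent pairs, 11.4 (11.1 to 11.7) at 1849 same-strand pairs and 11 (10.7 to 11.4) at 768 divergent pairs. A peak of both CTCF M-ChIP replicates overlapped 43.0% of them, while the other convergent, same-strand and divergent members had 75%, 79.7% and 78.8%. CTCF M-ChIP replicates 1 and 2 had a peak at 63.9% and 61.4% of them, and CTCF ChIP replicates 1 and 2 at 77.0% and 93.3%. CTCF M-ChIP NC replicates 1 and 2 had a peak at 29.3% and 57.9%. In the 8 open chromatin samples, a peak overlapped 0.413% to 2.89% of these 726 members. In each of the 14 samples that share was below the share of regions with 1 match. Their merged peaks were also narrower, with a median width of 206 bp against 251 bp for regions with 1 match, and they held 0.791 CpG per 100 bp. Near-identical copies can exchange reads in alignment, so the values of any single copy are uncertain.

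Where a CpG could be measured, the copies were often methylated. The partner motif had a mean methylation of 48.4% (258 motifs, median 8.50 reads), and 36 motifs (14%, 10.3 to 18.7) were above 80%. The recurrent motif held a CpG in 48 of 809 pairs, and its mean was 35.2% in the 37 motifs with at least 5 reads. Motifs of regions with 1 match had a mean of 15.8% over 11030 motifs with a median of 19 reads. Among the 10 pairs of this kind with both motifs measured, 4 had both below 20%. The copy near Snhg11, a small nucleolar RNA host gene, was chosen for its read number in both motifs, so its values are a description. It had 1 methylated read of 42 in the recurrent motif and 0 of 46 in the partner. Its fold was 13.5 and 12.5 in CTCF M-ChIP, 10.6 and 13.8 in CTCF M-ChIP NC, and 13.5 and 18.9 in CTCF ChIP. The copy near Cep83, a centrosomal protein gene, had a merged fold of 5.04 and no peak in any of the 14 single samples.

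Members were found more often than single regions in every sample. CTCF M-ChIP replicate 1 had a peak at 87.8% of members and 84.3% of regions with 1 match, and replicate 2 at 79.4% and 72.8%. CTCF M-ChIP NC replicates had 65.6% against 55.9% and 81.0% against 75.2%. CTCF ChIP replicates had 93.9% against 92.0% and 98.3% against 98.0%. The regions were defined by the merged CTCF M-ChIP peaks, so a high share in CTCF M-ChIP itself is part of their choice. The mean difference was 5.08 ± 2.19 percentage points in CTCF M-ChIP (SD, n = 2), 7.78 ± 2.78 in CTCF M-ChIP NC and 1.09 ± 1.20 in CTCF ChIP. With 92.0% and 98.0% of single regions already found, the difference in CTCF ChIP had little room to be larger. Two-sided exact permutation tests gave p = 0.33 for CTCF M-ChIP against CTCF ChIP (3.98 points) and p = 0.667 against CTCF M-ChIP NC (-2.70 points), where 2 samples against 2 cannot go below 0.33. The first difference was 2.44 to 5.53 points with 1 sample left out and turned to -2.43 points with 50% reciprocal overlap, and the second was -4.67 to -0.739 points with 1 sample left out. Among regions 200 to 400 bp wide, the difference ran from -0.92 to 3.94 points and was above 0 in 2 of the 6 CTCF samples.

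Few members overlapped an open chromatin peak, but more of them did than regions with 1 match in each sample. The 4 M-ATAC replicates had a peak at 13.2%, 14.2%, 12.7% and 11.8% of members and at 6.11%, 6.71%, 6.19% and 5.68% of regions with 1 match. M-ATAC NC replicates had 13.8% against 7.67% and 16% against 8.97%. ATAC replicates had 11.9% against 6.21% and 14.9% against 8.73%. The difference was above 0 in 8 of 8 samples, with a mean of 6.53 ± 0.624 points (SD, n = 8), and the exact sign-flip permutation test gave p = 0.00781, the smallest it can give. The M-ATAC NC samples are aliquots of M-ATAC DNA, so these 8 samples are not independent and this p is too small. Adjusted by Benjamini-Hochberg over the 8 tests made on the samples, this p was 0.0625, which did not pass 0.05, and the adjusted p of the other 7 exact tests was 0.667 to 1. Without the M-ATAC NC samples, an alternative chosen after seeing the data, the mean was 6.52 ± 0.675 points (SD, n = 6, above 0 in 6 of 6). The exact sign-flip p was 0.0312, the smallest possible, with an adjusted p of 0.25. The paper describes M-ATAC in duplicate while the labels list 4 replicates, so these 6 samples may not be independent either. The difference was 6.82 ± 0.594 points in M-ATAC (n = 4) and 5.92 ± 0.374 in ATAC (n = 2), which the exact permutation test did not separate (p = 0.267, smallest possible 0.133). Over the 8 samples the mean difference was 4.11 points with 50% reciprocal overlap in place of any overlap. Among regions 200 to 400 bp wide it was 4.65 to 7.10 points. The next values split the regions by place and CpG content, a split chosen after the values were seen. At promoters the samples had peaks at 20.2% to 27.1% of members and 11.4% to 18.1% of single regions, and elsewhere at 7.15% to 9.78% and 3.41% to 5.82%. At under 1 CpG per 100 bp the difference was 0.897 to 1.61 points, and at 4 or more it was 5.80 to 14.9 points, above 0 in all 8 samples in both. By kind of member the share was 0.413% to 2.89% at convergent pairs 38 bp apart, 10.6% to 14.8% at other convergent pairs, 13.7% to 17.3% at divergent pairs, 13.7% to 19.6% at same-strand pairs and 18.8% to 23.7% at 3 or more motifs. Same-strand and divergent members overlapped in range. Without the regions that held a convergent pair 38 bp apart, the difference from regions with 1 match was 7.78 to 10.3 points in the open chromatin samples and 1.19 to 16.6 points in the CTCF samples.

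**Figure D3:**
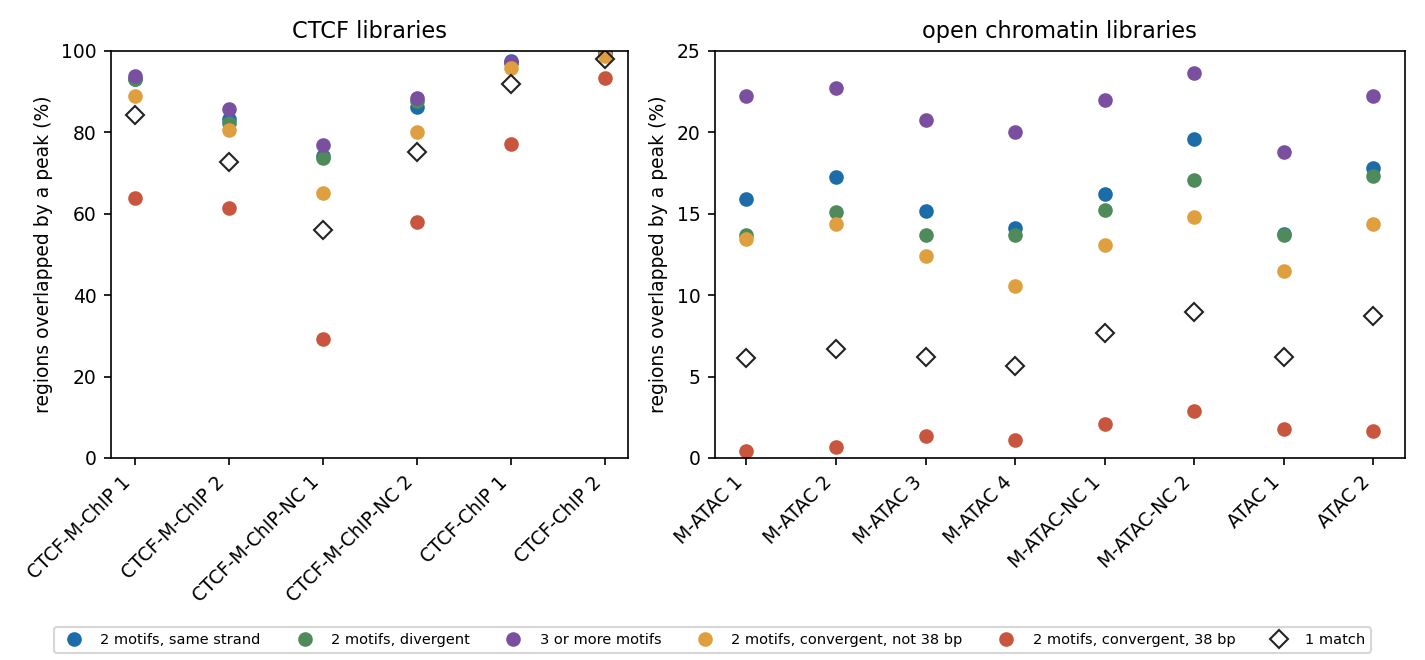
Share of regions overlapped by a peak (y axis, %) in each sample (x axis), for members by number, orientation and spacing of their motifs and for regions with 1 match, in CTCF samples (left, axis to 100%) and open chromatin samples (right, axis to 25%). In each sample the convergent pairs 38 bp apart stood below the regions with 1 match, and the members with 3 or more motifs stood above them.

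Peak height and summit number also differed between members and single regions. The median fold of found regions was 9.31 against 8.57 and 7.67 against 7.30 in CTCF M-ChIP, 7.83 against 7.32 and 8.67 against 8.10 in CTCF M-ChIP NC, and 11.9 against 10.9 and 15.0 against 13.9 in CTCF ChIP. It was higher in members in 6 of 6 CTCF samples, by 0.37 to 1.15, and by 0.0996 to 0.446 among regions 200 to 400 bp wide. Without regions that held a convergent pair 38 bp apart, chosen after seeing the data, it was higher by 0.603 to 1.93. Over all members, the difference was smaller in CTCF M-ChIP (0.552 ± 0.258, n = 2) than in CTCF ChIP (1.09 ± 0.0792, n = 2). The fold of single regions was also lower in CTCF M-ChIP (8.57 and 7.30) than in CTCF ChIP (10.9 and 13.9). These differences in fold are therefore not on an equal scale. The exact permutation test gave p = 0.33, which is the smallest possible. Against CTCF M-ChIP NC (0.542 ± 0.04, n = 2) the exact permutation p was 1. In open chromatin samples the difference in median fold ran from -0.11 to 0.162. Peaks with 2 or more summits made up 8.52% and 6.73% of members found in CTCF M-ChIP against 2.39% and 3.12% of single regions, and 10.5% and 11.8% against 3.84% and 5.77% in CTCF ChIP. The difference was 3.05 to 6.71 points in the 6 CTCF samples and 0.261 to 2.23 points among regions 200 to 400 bp wide. Its exact permutation p was 0.667 for CTCF M-ChIP against CTCF ChIP and against CTCF M-ChIP NC. In the merged list, 27.3% of members with 3 or more motifs had several summits, against 11.5% of same-strand, 12.5% of divergent and 5.76% of convergent pairs.

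The summit lay nearer the higher scoring motif. Among 4175 members with 2 motifs of unequal score, the highest summit of the merged peak was nearer the higher scoring motif in 3041 (72.8%, 71.5 to 74.2). The share was 72.0% and 69.7% in CTCF M-ChIP, 72.4% and 72.5% in CTCF M-ChIP NC, and 71.3% and 71.1% in CTCF ChIP. These 6 values lay within 3 points of each other. The median distance from the summit was 22 bp to the higher scoring motif and 52 bp to the lower scoring motif in the merged list. The share was 60.0% (56.6 to 63.3) where the scores differed by under 3, 72.0% (69.1 to 74.8) at 3 to 6 and 77.6% (75.9 to 79.2) at more. It was 65.6% (63.4 to 67.7) for motifs up to 50 bp apart and 80.7% (78.3 to 83.0) for those over 100 bp apart. In same-strand pairs the first motif along the strand scored higher in 1168 of 2289 pairs (51%, 49.0 to 53.1). This share was 54.9% (51.3 to 58.4) up to 50 bp, 53.4% (50.05 to 56.7) at 51 to 100 bp and 43.8% (40.1 to 47.5) over 100 bp apart.

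**Figure D4:**
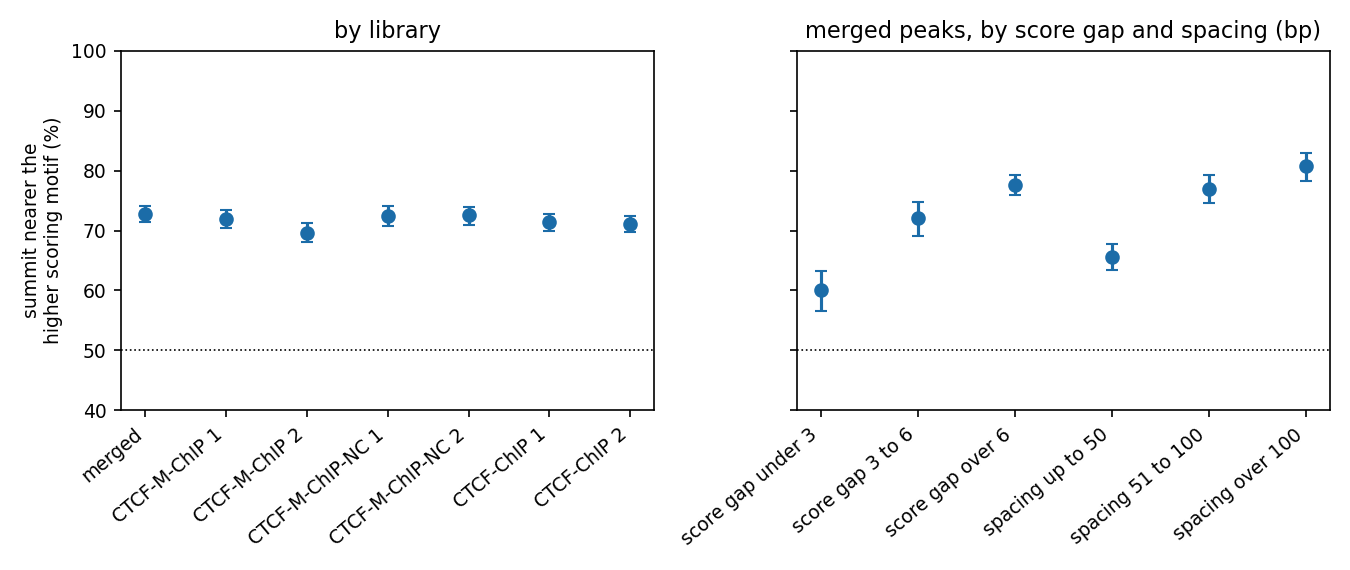
Share of members with 2 motifs whose highest summit lay nearer the higher scoring motif (y axis, %, from 40% to 100%), with Wilson 95% intervals as bars and a dotted line at 50%, by sample (left) and for merged peaks by the gap in score and by spacing (right). The 6 samples stood between 69.7% and 72.5%, and the share was 60.0% at small and 77.6% at large score gaps.

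One motif of a pair was typically as strong as the motif of a single region, and the other was weak. The median score was 17.3 (17.1 to 17.4) for the higher scoring motif, 9.57 (9.46 to 9.64) for the lower scoring motif and 17.1 (17 to 17.1) for regions with 1 match. Matches with p over 1e-05 made up 80.4% of lower, 10.9% of higher and 14.3% of single motifs. Motifs of a pair had a median of 10 equal bases of 19, and 54 pairs were identical, of which 52 were on the same strand. A CpG stood in 49.6% (48.2 to 51) of higher scoring motifs, 29.2% (28 to 30.5) of lower scoring motifs and 42.5% (41.9 to 43.1) of single motifs. At motif position 15, counted from 1 at the 5′ end and known as C12, the CpG was present in 39.9%, 15.5% and 33.8%. At position 5, known as C2, it was present in 6.61%, 6.33% and 5.38%. Both CpGs are part of the motif that gave the score, so CpG content and the ranking by score are not independent.

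At C2, the mean methylation of lower scoring motifs was 7.22% over 204 lower scoring motifs, against 1.51% over 256 higher scoring motifs and 1.44% over 1205 single motifs. Pooled over reads this was 152 of 2790 (5.45%, 4.67 to 6.35), 42 of 3167 (1.33%, 0.983 to 1.79) and 175 of 13088 (1.34%, 1.15 to 1.55). At C12 the means were 14.1% over 534 lower, 12.5% over 1483 higher and 12.8% over 7516 single motifs. Motifs were compared here across different regions, and the intervals cover counting error only.

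Within pairs, both motifs could be measured in 779 of the 962 pairs with a CpG in each, and 771 of these had unequal scores. The lower scoring motif had a mean methylation of 13.9% and the higher scoring motif 7.79%, a mean difference of 6.11 points. The difference was 4.08 points with at least 10 reads per cytosine, and 3.14 points with reads pooled over motifs (7.80% against 4.66%). The medians were 1.89% and 0%, with medians of 22 and 30 reads. The lower scoring motif was more methylated in 335 pairs, the higher scoring motif in 152, and they were equal in 284, of which 281 had no methylated read. The mean difference was above 0 on 19 of 20 chromosomes with at least 10 pairs, from -1.82 to 12.3 points. It was 5.99 points in 434 same-strand, 4.79 in 182 convergent and 8.01 in 155 divergent pairs. By spacing it was 3.77 points up to 50 bp, 6.40 points at 51 to 100 bp and 9.41 points over 100 bp. At C12 in both motifs it was 5.90 points (269 pairs, 12.4% against 6.48%), and at C2 it was 2.14 points (34 pairs, 3.05% against 0.91%). Of the 34 pairs at C2, the lower scoring motif was more methylated in 5, the higher scoring motif in 5, and 24 were equal. The difference was 7.71 points in 532 pairs whose higher scoring motif was nearer the summit, with medians of 31.5 and 18 reads. It was 2.55 points in 237 pairs whose lower scoring motif was nearer the summit, with medians of 28 and 32 reads. The part of summit distance and read depth in the difference was not tested.

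Most pairs had low methylation at both motifs. Both were below 20% in 564 pairs (73.2%, 69.9 to 76.2), and both at 20% or more in 82 (10.6%, 8.65 to 13.0). The lower scoring motif alone was at 20% or more in 110 pairs (14.3%, 12 to 16.9) and the higher scoring motif alone in 15 (1.95%, 1.18 to 3.19). The median merged fold was 13.2 (12.8 to 13.8) where both were low, 12.2 (10.8 to 13.0) where the lower scoring motif alone was high, 14.9 (12.8 to 18.9) where the higher scoring motif alone was high and 11.3 (10.4 to 12.3) where both were high. In 364 pairs that M-ATAC also covered with at least 5 reads, CTCF M-ChIP had 3.89% at the lower and 2.88% at the higher scoring motif, and M-ATAC had 2.81% and 2.33%. These are pairs covered in merged M-ATAC, which favours open chromatin, and they were not chosen by the peaks of single samples. In M-ATAC the lower scoring motif was more methylated in 68 pairs, the higher scoring motif in 60 and neither in 236.

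Fisher's exact test of methylated and unmethylated reads, adjusted by Benjamini-Hochberg over 779 pairs, gave a difference in 34 pairs (4.36%), and 106 pairs had an unadjusted p under 0.05. The lower scoring motif was the more methylated one in 33 of them (4.24% of pairs tested) and the higher scoring motif in 1 (0.128%). Of the 34 pairs, 20 of 442 were on the same strand, 5 of 182 convergent and 9 of 155 divergent. Their medians were 3.77% at the higher and 51.7% at the lower scoring motif, with 34 and 18.5 reads and a median spacing of 84 bp. The reads of a motif come from both strands and several CpGs and are not independent molecules. With 1 cytosine per motif, 6 pairs passed, and with at least 10 reads per cytosine 17 of 397 pairs did.

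**Figure D5:**
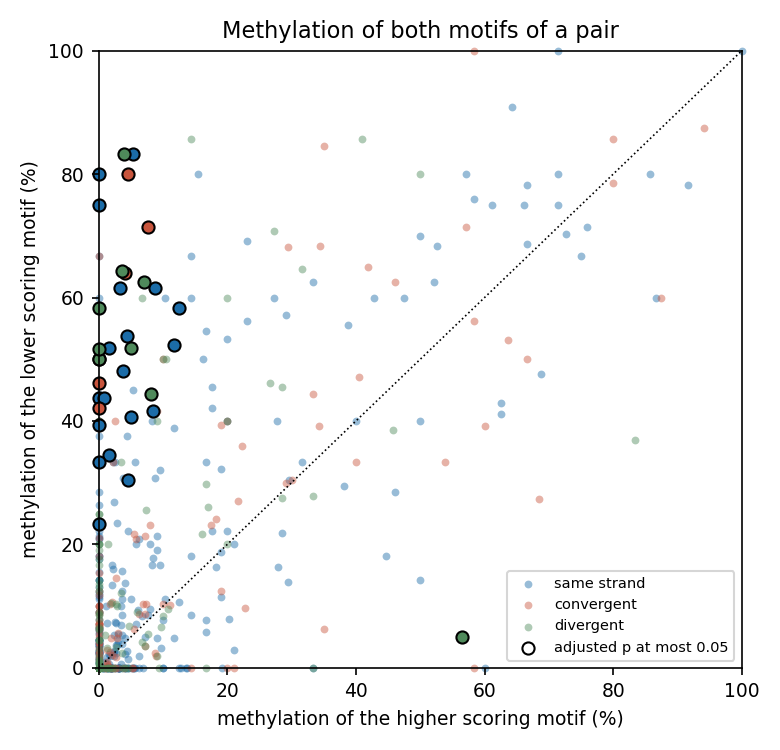
Methylation of the lower scoring motif (y axis, %) against that of the higher scoring motif (x axis, %) in 771 pairs, coloured by orientation, with black rims for pairs at an adjusted p of at most 0.05 and a dotted line of equality. Most pairs lay near 0 in both, and 33 of the 34 rimmed pairs lay above the line.

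The 6 pairs with the largest difference had a higher scoring motif with 0 to 2 methylated reads beside a methylated lower scoring one. In the Trmt44 pair, in an intron of a tRNA methyltransferase gene, the higher scoring motif (score 25.6) had 0 of 35 methylated reads and the lower scoring motif (score 8.85), 267 bp away, had 6 of 8 (75%, 40.9 to 92.9). M-ATAC had 0 of 19 methylated reads at the first motif. The fold at this region was 14.1 and 11.9 in CTCF M-ChIP, 14.8 and 16.5 in CTCF M-ChIP NC, and 18.7 and 20.02 in CTCF ChIP. The Brd1 pair had 0 of 29 reads against 4 of 5, with scores of 20.1 and 8.20. The Gm4118 pair had 1 of 25 against 5 of 6, with scores of 18.5 and 8.97. A pair 1507 bp from the start of 1700036A12Rik had 1 of 19 against 5 of 6, and a pair in Trpm3, a cation channel gene, had 1 of 22 against 4 of 5 in a region that overlapped an exon. The pair in an intron of Lexm, with closer scores of 14.4 and 10.9, had 2 of 26 against 10 of 14. The adjusted p of these 6 pairs by Fisher's exact test ran from 0.000596 to 0.0346. The methylated motif had 5 to 14 reads, and with 5 reads a value moves in steps of 20%. The 1 pair with the opposite direction lay 2587 bp from the start of Pmp22, a myelin protein gene, where motifs of scores 11.6 and 10.6 stood 20 bp apart with 13 of 23 and 1 of 20 methylated reads (adjusted p = 0.013 by Fisher's exact test).

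All members are merged CTCF M-ChIP peaks by definition, and in 82 of 771 pairs both motifs were at 20% or more. The 3 most methylated pairs are described here. In an intron of Lama4, a laminin gene, same-strand motifs with scores of 19.7 and 18.4 had 19 of 25 (76.0%, 56.6 to 88.5) and 45 of 63 methylated reads (71.4%, 59.3 to 81.1). The fold there was 17.4 and 15.3 in CTCF M-ChIP, 15.8 and 13.0 in CTCF M-ChIP NC, and 22.4 and 25.9 in CTCF ChIP. The Ctcfl array, in an intron of the germline paralogue of CTCF, had 48 of 67 methylated reads over 5 of its 6 motifs (71.6%, 59.9 to 81.0). Its fold was 11.5 and 7.24 in CTCF M-ChIP, 5.96 and 5.68 in CTCF M-ChIP NC, and 10.5 and 10.8 in CTCF ChIP, and no open chromatin sample had a peak there. Ctcfl was at 0.91 TPM. A region 5356 bp from the start of Il17ra had 5 of 5 and 9 of 9 methylated reads, a merged fold of 5.51, and no peak in CTCF M-ChIP replicate 2 or CTCF M-ChIP NC replicate 1. Its fold was 5.26 in CTCF M-ChIP replicate 1, 6.72 in CTCF M-ChIP NC replicate 2, and 5.39 and 21.2 in CTCF ChIP. These 3 were named for the highest lower bound of methylation, so their level is a description.

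The pairs of strongest motifs, among pairs with at least 5 reads at a cytosine of both motifs, covered both states. The same-strand pair near Gm14234, with scores of 21.7 and 21.7, had 16 of 22 and 19 of 27 methylated reads. The same-strand pair 9717 bp from Gm45185, with scores of 22.9 and 21.9, had 24 of 63 and 31 of 105. In contrast, the convergent pair of Rimbp2, a synaptic scaffold gene, had 4 of 36 and 5 of 49. The convergent pair at the start of B3glct, a glucosyltransferase gene, had 0 of 10 and 0 of 31, and it was the 1 pair of these 6 with peaks in most open chromatin samples (7 of 8). The divergent pair of Pmm1, which encodes a phosphomannomutase, had 3 of 29 and 1 of 37, and a divergent pair 4117 bp from the class I histocompatibility gene H2-K1 had 0 of 35 and 1 of 7. None of these 6 pairs passed the Fisher threshold, and their fold in CTCF ChIP was 12.3 to 18.7.

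Some regions with many motifs were tandem arrays. All motifs were on 1 strand in 118 of the 410 members with 3 or more motifs (28.8%), and in 30 of the 67 with 4 or more. In 19 of the 410 members (4.63%) the motifs of 1 strand were also equally spaced, with periods of 20 to 70 bp, and 14 of these had 4 or more motifs. The most motifs, 9, stood in an intron of Ctif, a translation factor gene (chr18:75599751-75600175), on the minus strand with a period of 29 bp. Its fold was 15.0 and 12.7 in CTCF M-ChIP, 11.9 and 14.6 in CTCF M-ChIP NC, and 17.8 and 15.0 in CTCF ChIP. Its 1 measured motif had 48 of 83 methylated reads (57.8%). The region with 8 motifs lay 1018 bp from the start of Stra8, a gene of meiotic entry in germ cells (chr6:34922028-34922425). Its fold was 21.1 and 18.5 in CTCF M-ChIP, 12.6 and 14.2 in CTCF M-ChIP NC, and 21.4 and 20.9 in CTCF ChIP. M-ATAC had a peak there in all 4 samples, while M-ATAC NC and ATAC had none. Its 7 measured motifs ran from 0 of 13 methylated reads at the first by position to 5 of 10 at the last measured one, and the one with most methylated reads had 25 of 56 (44.6%, 32.4 to 57.6). The next 3 motifs after the first had the same sequence, and from left to right they had 12.8%, 30.8% and 44.6% in CTCF M-ChIP and 21.2%, 35.7% and 48.1% in M-ATAC. Identical motifs of an array can exchange reads in alignment, so the values of single motifs are uncertain in both. The Sec22c array, in a gene of vesicle transport, held scores of 23.5 to 26.5 and no CpG. Its fold was 20.8 and 15.5 in CTCF M-ChIP, 5.85 and 3.84 in CTCF M-ChIP NC, and 14.7 and 19.9 in CTCF ChIP, so the NC samples stood below both other groups. Among the equally spaced arrays, 4 motifs in the intergenic region nearest to Hepacam2 had the highest merged fold (37.5) with 5 of 153 methylated reads, and 6 motifs in Fcgr1 had 37 of 53.

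Of 12 genes of CTCF and the cohesin complex, 6 had a member within 3 kb of a start or in the gene, and 6 of the 23 merged regions at these genes were members (26.1%, against 11.9% of all regions). At Ctcf itself a convergent pair 86 bp apart with scores of 14.4 and 9.51 had 1 of 48 methylated reads. Its fold was 12.1 and 6.43 in CTCF M-ChIP and 14 and 18.2 in CTCF ChIP, and CTCF M-ChIP NC had a peak in replicate 1 (9.70) only. Stag1 and Stag2, which encode alternative cohesin subunits, had same-strand pairs 58 and 49 bp apart with 1 of 68 and 0 of 86 methylated reads and merged folds of 13.9 and 18.2. Pds5b, a cohesin regulator, had a divergent pair 80 bp apart with scores of 22.2 and 9.21, 1 of 92 methylated reads and a peak in all 8 open chromatin samples. The member in an intron of Wapl, the cohesin release factor, was a convergent pair 38 bp apart with 3 of 6 methylated reads and a merged fold of 7.20. Transcripts were at 82.9 TPM for Ctcf, 45.8 for Stag1, 48.0 for Stag2, 23.6 for Pds5b and 113 for Wapl.

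Of 28 imprinted genes in the annotation, 4 had a member, and 4 of 28 merged regions there were members (14.3%). At Peg3, a zinc finger gene expressed from the paternal allele, 1 promoter region held 6 motifs on both strands. Its 3 measured motifs had 2 of 23, 1 of 14 and 1 of 17 methylated reads, and a peak was present in all 14 samples, with a fold of 10.9 and 6.18 in CTCF M-ChIP. Meg3 and Peg13, which make noncoding RNAs, had same-strand pairs 76 and 284 bp apart with 0 of 11 methylated reads each, and merged folds of 4.33 and 6.34. A same-strand pair in an intron of Plagl1 had 2 of 10. Of 16 pluripotency genes, Mycn alone had a member, a same-strand pair 81 bp apart with 0 of 30 methylated reads, in 1 of 16 merged regions (6.25%). Members in the Hox clusters were a same-strand pair 117 bp apart at Hoxa3 and Hoxa5, with 0 of 77 methylated reads and a merged fold of 19.1, and a same-strand pair 271 bp apart at Hoxd3 and Hoxd4 that had no peak in either single CTCF M-ChIP sample. Hoxb and Hoxc genes had none of their 4 and 3 merged regions among the members. In the clustered protocadherins, which encode neuronal surface proteins, members were 1 of 18 merged regions at Pcdha genes, 1 of 21 at Pcdhg genes and 0 of 23 at Pcdhb genes. The Pcdha member was a same-strand pair 136 bp apart with 3 of 64 methylated reads and a merged fold of 14.4. With so few regions in each list, these shares are given as counts beside the 11.9% of all regions.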

How the data were processed

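CTCF M-ChIP, CTCF M-ChIP NC, CTCF ChIP, M-ATAC, M-ATAC NC and ATAC were analysed in 14 samples of KH2 mESC. The merged values of 2 mESC RNA-seq samples were used for transcript levels only. The KLF4 lists and the remaining groups were not used here. The authors trimmed reads with Trim Galore 0.4.4, aligned M-ChIP and M-ATAC reads to mm10 with Bismark 0.18.1 and Nextera ChIP and ATAC reads with bowtie2, and removed low quality and duplicate reads with SAMtools 1.3. Which aligner served the unconverted NC aliquots, and how RNA reads were aligned, is not given in the sources used here. The authors called peaks with MACS2, with summits called separately, and deposited a fold enrichment (pileup against the local background), a −log10 q and a score for each summit. Motif matches were deposited by the authors with a FIMO score and p-value (largest p-value 9.98e-05). Methylated and unmethylated read counts and the percent methylation per cytosine were deposited by the authors for merged replicates. Transcript levels were deposited as TPM of merged replicates.

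Summits of the same region were joined, and the highest fold was kept. Overlapping matches were resolved by keeping the highest score. Where that left 1 match, the non-overlapping pair of highest summed score was kept if there was one, so the highest match could be dropped. Spacing was taken between midpoints. A region was found in a sample if a peak overlapped it by at least 1 bp. Reads of all cytosines with at least 5 reads were pooled per motif, so that a single cytosine at the minimum moves in steps of 20%. Places came from GENCODE M21 on GRCm38, with promoters within 3 kb of a start, and all 38571 motif matches read from the reference had the deposited sequence. Medians have order-statistic and shares Wilson 95% intervals, which cover counting error only. Pairs were tested by two-sided Fisher's exact test with Benjamini-Hochberg adjustment at 0.05, and samples by two-sided exact permutation or sign-flip tests. Named regions were the 3 with most motifs, the 2 pairs of each orientation with the highest lower score, the 6 called pairs with the largest difference in methylation, the 3 pairs with the highest lower bound of methylation, and regions at the listed genes. Regions at Pmp22, the copies near Cep83 and Snhg11, and the equally spaced arrays were chosen after their values were seen. The members and lists were chosen with earlier results of these data known. Alternatives changed the motif p, gap, regions, overlap, read minimum, summit and samples used. Scripts were tested on simulated data. Tests ran in scipy 1.17.1 and tables in pandas 2.3.3 with numpy 2.4.6, sequences were read by pyfaidx 0.9.0.4, and matplotlib 3.10.9 drew the plots, under Python 3.11.15.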

Additional observations from a re-analysis of the deposited data

How the results depend on the processing

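Of 112 alternative values, 88 kept their direction and call, 18 moved and 6 turned direction. Motif matches of p at most 1e-05 left 1028 regions, with 60.1% of pairs on the same strand (median spacing 78 bp), 21.9% convergent (53 bp) and divergent pairs at 124.5 bp, and the summit was nearer the higher scoring motif in 64.8%. With every summit used in place of the highest, that share was 70.5%. Regions in both CTCF M-ChIP replicates gave 49.8% same-strand, 30.0% convergent and 20.2% divergent pairs, and a −log10 q of at least 5 gave 34% convergent. Without the convergent pairs 38 bp apart, chosen after seeing the data, the shares were 54.1%, 23.5% and 22.4%, with a convergent median of 54 bp. Pairs called by Fisher's exact test fell to 17 with at least 10 reads and to 6 with 1 cytosine per motif. The difference in median fold of CTCF M-ChIP from its NC control (0.0101) turned to -0.0236 with the mean over summits and to -0.0589 at 200 to 400 bp of width, and ranged from -0.172 (without CTCF M-ChIP replicate 1) to 0.192 with 1 sample left out, and it was -0.0182 without CTCF M-ChIP NC replicate 1. The difference in found share between CTCF M-ChIP and CTCF ChIP (3.98 points) turned to -2.43 with 50% reciprocal overlap and to -0.125 at 200 to 400 bp. The causes were not tested. Regions in both CTCF M-ChIP replicates give no found share for CTCF M-ChIP, where it is 100% by construction.

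With the replicate block (same-numbered samples paired, 2 pairs), the exact sign-flip p was 0.5 for CTCF M-ChIP against CTCF ChIP in fold (-0.54), found share (3.98 points) and summits (-1.49 points), and 1 against CTCF M-ChIP NC. For M-ATAC against ATAC the blocked difference was 1.37 points with an exact p of 0.5. The smallest p of 2 pairs is 0.5, so the block could make no call. Methylation of merged replicates has no replicate error, and a low read number limits the level of single motifs.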
